A study of Mus musculus with 36 samples.

Results

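Tamoxifen given alone to secondary fibroblasts carrying a Zscan4-ERT2 transgene is described here from 12 of the 36 arrays of the series, 6 with tamoxifen alone and 6 with neither drug, over all 42006 probes that are not array controls. The arrays were chosen by their labels: secondary mouse embryonic fibroblasts (MEFs), transgene KOS-ZERT2, no doxycycline, days 1, 3 and 6, with 2 arrays per treatment and day. All 12 samples were second-generation MEFs of clone #1 on a hybrid C57Bl/6 x 129 background, so 1 clone stands for the line. Cells grew on gelatin in ES medium with the cytokine LIF. The treated cultures received tamoxifen at 200 nM (Dox-Tmx+) and their controls neither drug (Dox-Tmx-). The protocol of tamoxifen alone, day 1, replicate 2 mentions no tamoxifen, although its title and treatment label do. A further 12 secondary MEF arrays received doxycycline at 1.5 µg/ml, 6 with tamoxifen and 6 without, on the same days. The other 12 arrays were primary MEFs carrying Zscan4ERT2 with and without tamoxifen, wild MEFs labelled with and without it, and iPS and ES cells, at 2 arrays each.

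Zscan4 is a zinc-finger protein made in early cleavage-stage mouse embryos and, in short bursts, in a small share of cultured ES cells, where it is known for its role in telomere maintenance and genome stability. The ERT2 tag is a mutated hormone-binding domain of the oestrogen receptor that keeps a fusion protein out of the nucleus until a tamoxifen metabolite binds it. The KOS cassette stands for the reprogramming factors Klf4, Oct4 and Sox2, which doxycycline switches on in such cells. Without doxycycline, tamoxifen therefore meets fibroblasts that have not been given the drug that induces the reprogramming factors. The comparison asks what tamoxifen changes in those cells. The array files pair their probes with identifiers and not with gene symbols, so the results are given by probe, and the levels of the Zscan4-ERT2 and KOS transgenes were not analysed here.

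Each array held the sample's RNA in Cy3 against a common reference in Cy5, a pool of mouse cell-line RNAs mixed with ES cell RNA, without dye swap. Values are log2 ratios of sample over reference, normalized within the array without subtraction of local background. The precision is set by the number of arrays. The sample channel was well above background for 67.0% to 74.1% of probes on the 12 arrays, and 26968 probes passed on all 12. These are called bright below. The other 15038 probes were tested too, but background compresses their ratios, so no limit on a true change is drawn from them. All 4 arrays of a day shared 1 slide, with tamoxifen always at positions 3 and 4 and neither drug at positions 1 and 2, so a shift between positions and tamoxifen cannot be told apart. Nothing in the labels ties the 2 samples of a group to different cultures, and the spread behind every p-value and interval may therefore be technical.

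Before tamoxifen was considered, the cells were set against probes that separate ES cells from fibroblasts. A list of 1218 probes at least 4-fold higher in ES cells than in untreated wild MEFs, and 2574 at least 4-fold higher in the wild MEFs, was made on arrays other than the 12. The median log2 ratio of the ES-high probes was between -2.04 and -1.77 in the 6 arrays with tamoxifen alone and between -2.08 and -1.68 in the 6 with neither drug. It was -1.70 and -1.68 in wild MEFs and 1.13 and 1.14 in ES cells. For the MEF-high probes the medians were 0.49 to 1.14 with tamoxifen alone, 0.44 to 1.1 with neither drug, 1.17 and 1.20 in wild MEFs and -1.92 and -1.88 in ES cells. All 12 arrays thus lay on the fibroblast side of both lists, and the ranges with and without tamoxifen overlapped.

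Two-sided tests with limma, with day as a block, called 0 of the 42006 probes higher or lower with tamoxifen alone (0%; Benjamini-Hochberg adjusted p under 0.05). The smallest adjusted p was 0.515. An unadjusted p under 0.05 was reached by 3504 probes, which is 8.34%. Taken by day, limma again called 0 probes on day 1, day 3 and day 6 (0% each). The probes with an unadjusted p under 0.05 numbered 2270 (5.4%) on day 1, 869 (2.07%) on day 3 and 1912 (4.55%) on day 6. These counts of 0 by day depend on single arrays and on the values used: with 1 array left out limma called 0 to 10 probes on day 1, 0 to 16 on day 3 and 0 to 4750 on day 6. The 4750 arose without tamoxifen alone, replicate 1. With the Feature Extraction log ratio it called 12, 3 and 3 on days 1, 3 and 6. A moderated F-test of whether the effect of tamoxifen differed between the days called 0 probes (0%), with 1149 at an unadjusted p under 0.05 and a smallest adjusted p of 0.997. With 1 array left out this count was 0 to 40. The same 42006 probes gave 16994 calls (40.5%) between day 6 and day 1 in the arrays with neither drug, so changes could be called with arrays of this kind, although those 2 days also lay on different slides.

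**Figure D1:**
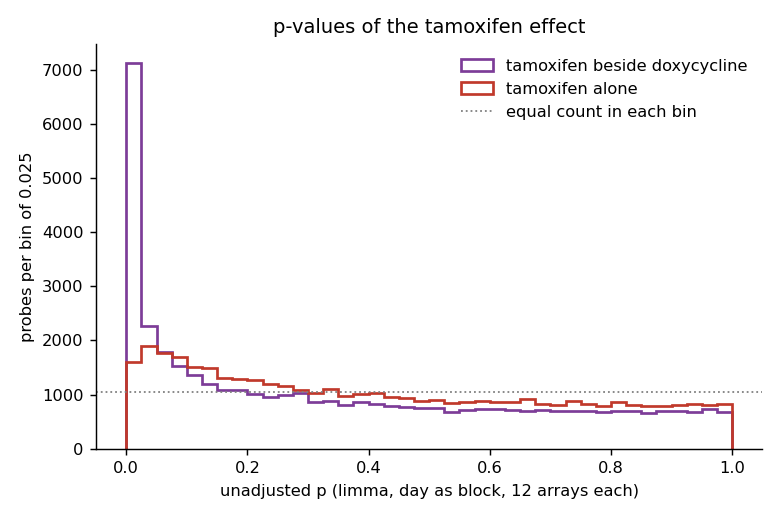
The plot shows how many of the 42006 probes fell in each bin of unadjusted p (width 0.025, limma with day as a block, 12 arrays each) for tamoxifen alone in red and for tamoxifen beside doxycycline in purple. The red line lies above the dotted line of equal counts at low p, with 3504 probes (8.34%) under 0.05 and 0 called after adjustment, and below it at high p. The purple line has a much taller first bin.

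How large a change the arrays can exclude was read from the 95% interval of each bright probe. Each limit is on the measured ratio, which background also compresses at bright probes of low signal. The intervals rest on the spread between arrays, so they may leave out variation between cultures and be too narrow for an effect across cultures. A shift between slide positions, if present, would be part of each estimate. The median half-width of these intervals was 0.0958 on the log2 scale, a 1.07-fold change, and 95% of half-widths were at or under 0.189, or 1.14-fold. For 99.8% of the 26968 bright probes the whole interval lay within a 2-fold change in either direction. It lay within 1.5-fold for 99.3%, and within a change of 25% (a rise by 25% or the fall by 20% that equals it on the log scale) for 95.2%. A 2-fold change was not excluded for 51 bright probes, a 1.5-fold change for 187 and a change of 25% for 1288. No interval lay wholly beyond a change of 25%. The intervals of 1523 probes lay wholly above 0 and those of 1382 wholly below it.

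These limits hold for each probe taken singly. With intervals widened to hold for all bright probes together (Bonferroni), the median half-width was 0.371, or 1.29-fold, and a 2-fold change was excluded for 97.3%, a 1.5-fold change for 80.2% and a change of 25% for 18.4%. A single probe needed an unadjusted p of 1.19e-06 to be called, which at the median standard error of 0.0441 asks for a log2 change of 0.387, or 1.31-fold. The limits were much the same for brighter probes. Among the 15361 bright probes at least 5 times above their local background, 99.8%, 99.2% and 94.7% lay within 2-fold, 1.5-fold and 25%. Across 5 bins of brightness the median half-width was 0.0944 in the dimmest, then 0.101, 0.102 and 0.0955, and 0.085 in the brightest. In the dimmest bin, with signals of 56.5 to 84, 99% of probes lay within 25%, against 93.8% to 95.3% in the other bins. Since background compresses ratios at low signal, the higher share there sets no tighter limit on a true change.

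Single days gave wider limits, since each rests on 2 arrays against 2. The median half-width was 0.172, or 1.13-fold, on each day, because the 3 days share 1 estimate of the spread per probe. The spread itself was not equal. Over bright probes the SD of the difference between replicates on days 1, 3 and 6 was 0.0889, 0.0828 and 0.281 with tamoxifen alone. With neither drug it was 0.177, 0.122 and 0.16. The limits below may therefore be too narrow for day 6 and too wide for day 3. A 2-fold change was excluded for 99.3% of bright probes on day 1, 99.4% on day 3 and 99.2% on day 6. A change of 25% was excluded for 73.9% on day 1, 83.1% on day 3 and 71.4% on day 6. A response present on 1 day only is therefore less closely limited than one shared by the 3 days.

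**Figure D2:**
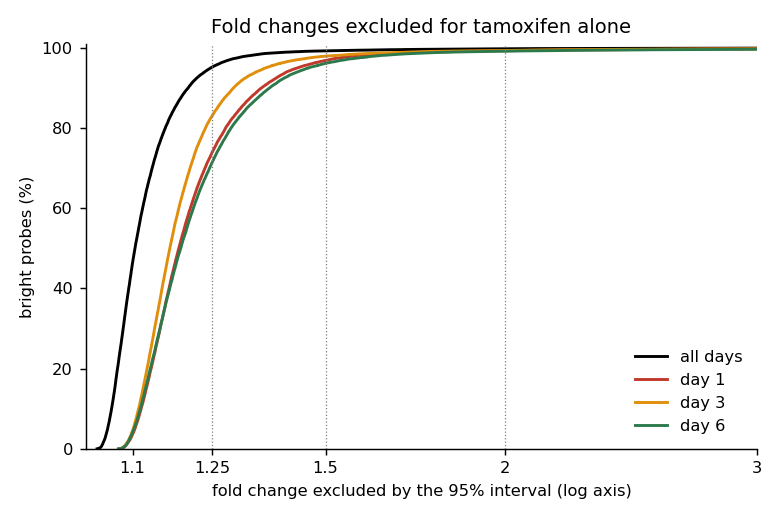
The curves give the percent of the 26968 bright probes (y axis) whose 95% interval for tamoxifen alone lies within a given fold change (x axis, log scale), over all days in black and for each day in colour. At a rise of 25%, the first dotted line, the black curve is at 95.2%, and the curves of days 1, 3 and 6 are at 73.9%, 83.1% and 71.4%.

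The estimates themselves were small. Over the bright probes the log2 change with tamoxifen alone had a median of 0.0055, a 1st percentile of -0.197 and a 99th of 0.172. Estimates beyond a change of 25% numbered 76, beyond 1.5-fold 10 and beyond 2-fold 2. The highest was 1.16 at probe Z00073062-1 (SE 0.865). This probe read 1.93 and 2.41 with tamoxifen alone on day 6, against -4.39 and 1.94 with neither drug, so 1 array with neither drug sets its estimate. The lowest was -0.694 at Z00063945-1 (SE 0.504), which read 0.61 and -3.20 with tamoxifen alone on day 6, against 0.409 and -0.0431 with neither drug. Here 1 array with tamoxifen sets it.

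Of the 51 bright probes for which a 2-fold change was not excluded, the largest residual lay on tamoxifen alone, day 6, replicate 2 for 24 and on neither drug, day 6, replicate 1 for 15. The first of these arrays, and neither drug, day 1, replicate 2, stood apart from the rest. The SD of the deviation from the day's mean over bright probes was 0.192 and 0.132 on these 2 arrays, and between 0.0555 and 0.123 on the other 10. On day 6 the median absolute difference between the 2 arrays with tamoxifen alone was 0.156, against 0.0741 between the 2 with neither drug. The difference between the 2 treatments was 0.0738. On day 1 these values were 0.0506 with tamoxifen alone, 0.101 with neither drug and 0.0678 between treatments, and on day 3 they were 0.0437 with tamoxifen alone, 0.0528 with neither drug and 0.0428 between treatments. The treatment values are differences between means of 2 arrays and the replicate values differences between single arrays, so their sizes are not directly comparable and no test was made of them.

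Without the 2 arrays that stood apart, limma also called 0 probes over all days, and the limits tightened. These 2 arrays were picked for their large deviations, so the tightening follows from the choice and does not show that the limits are tighter. The median half-width was 0.0796, and changes of 2-fold, 1.5-fold and 25% were excluded for 99.9%, 99.5% and 98.1% of bright probes. The deviations of those 2 arrays moved with the base composition of the probes. They correlated with probe GC content at -0.32 for tamoxifen alone, day 6, replicate 2 and at 0.41 for neither drug, day 1, replicate 2, and at -0.29 to 0.26 for the other 10 arrays (across the bright probes, which share the arrays and are not replicates). The median change with tamoxifen alone over all days was 0.059 for bright probes under 35% GC and -0.025 for those of 55% GC or more. Without the 2 arrays the same medians were 0.01 and -0.0043. The part of base composition in the estimates of single probes was not tested.

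No probe was called, so the probes with the lowest p in each direction are given as the closest to a change. Z00006163-1 had the lowest p of all. On day 1 it read 0.602 and 0.601 with tamoxifen alone, against 0.307 and 0.235 with neither drug. On day 3 it read 0.567 and 0.534 with tamoxifen alone, against 0.342 and 0.379 with neither drug, and on day 6 it read 0.482 and 0.56 with tamoxifen alone, against 0.359 and 0.269 with neither drug. The tamoxifen arrays were higher on every day, without overlap. Its estimate was 0.242 (SE 0.0346, 95% interval 0.167 to 0.317, the lower end being 1.12-fold), with an adjusted p of 0.515 over all probes in limma. Beside doxycycline, where 10.5% of all probes were called, it was called higher, by 0.161 (adjusted p 0.0186 in limma). By day that change was 0.00348, 0.205 and 0.275. The difference between the 2 effects was not called (adjusted p 0.549 in limma).

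Z00075034-1 was the other rising probe. It read -0.632 and -0.759 with tamoxifen alone on day 1, against -0.895 and -1.29 with neither drug. The day 3 values were 0.0935 and 0.179 with tamoxifen alone, against 0.0505 and -0.142 with neither drug. Those of day 6 were 1.31 and 1.41 with tamoxifen alone, against 0.974 and 0.869 with neither drug. Day 6 lay above day 1 in both treatments by far more than the treatments differed from each other. The tamoxifen estimate was 0.339 (SE 0.0691, 95% interval 0.188 to 0.489), with an adjusted p of 0.592 in limma. Beside doxycycline this probe too was called higher, by 0.251 (adjusted p 0.0155 in limma), and the difference between the 2 effects was not called (adjusted p 0.688 in limma).

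Among falling probes the lowest p belonged to Z00059566-1 and Z00057511-1. Z00057511-1 read -0.177 and -0.373 with tamoxifen alone on day 1, against -0.0811 and -0.0541 with neither drug. On day 3 it read -0.335 and 0.0854 with tamoxifen alone, against 0.619 and 0.533 with neither drug, and on day 6 it read 0.391 and 0.123 with tamoxifen alone, against 0.675 and 0.642 with neither drug. The tamoxifen arrays were lower and also more scattered than their controls on each day. Its estimate was -0.437 (SE 0.0891, 95% interval -0.631 to -0.243) and its adjusted p in limma 0.592. Z00059566-1 read 0.456 and 0.44 with tamoxifen alone on day 1, against 0.571 and 0.744 with neither drug. Its day 3 values were 0.419 and 0.392 with tamoxifen alone, against 0.514 and 0.591 with neither drug. Its day 6 values were 0.565 and 0.444 with tamoxifen alone, against 0.63 and 0.749 with neither drug. The groups did not overlap on any day, and the estimate was -0.181 (SE 0.0391, adjusted p 0.592 in limma). Neither falling probe was called beside doxycycline, where Z00057511-1 changed by 0.0295 and Z00059566-1 by -0.0156. The difference between the 2 effects was not called at either (adjusted p 0.0897 and 0.315 in limma).

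**Figure D3:**
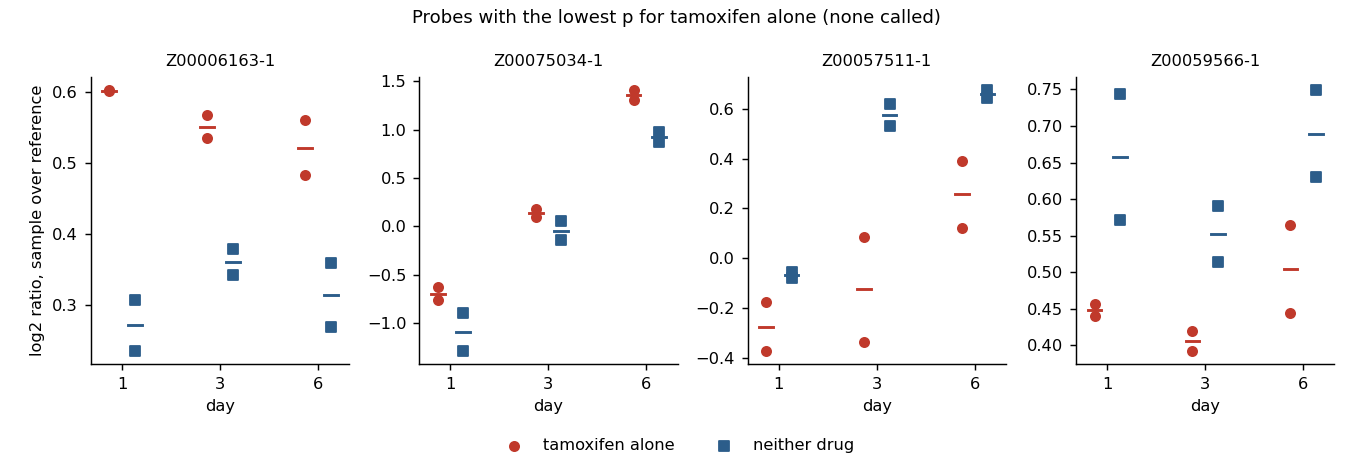
Each panel plots the log2 ratio of sample over reference of 1 probe by day, with tamoxifen alone as red circles and neither drug as blue squares (each point an array, bars the mean of 2). In the 4 panels the groups do not overlap on any day, and the estimates run from -0.437 to 0.339. None of the 4 was called.

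Such separation on all 3 days was seen at other probes too, and whether it was more frequent than by chance was not tested. The 2 tamoxifen arrays were above both arrays with neither drug on each of the 3 days at 536 of the 42006 probes (1.28%), and below both on each day at 320 (0.762%). The probe with the lowest p on day 1, Z00038399-1, read 0.443 and 0.428 with tamoxifen alone against -0.129 and -0.252 with neither drug. The day 3 arrays of this probe read 0.436 and 0.375 with tamoxifen alone, against 0.388 and 0.135 with neither drug. On day 6 they read 0.451 and 0.574 with tamoxifen alone, against 0.472 and 0.49 with neither drug, and the groups overlapped. The lowest p on day 3 was that of Z00057511-1, already given. On day 6 it was that of Z00023515-1, with a mean of 0.93 ± 0.023 with tamoxifen alone against 1.31 ± 0.085 with neither drug (SD, n = 2 each). That probe's groups overlapped on day 3, with 0.996 and 0.916 for tamoxifen alone against 0.959 and 1.05 for neither drug. The adjusted p in limma was 0.501 for the day 1 probe and 0.809 for the day 6 probe. In a fit of all 36 arrays the day 6 probe, Z00023515-1, was called, with a change of -0.383 and an adjusted p of 0.044 in limma.

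The probe whose tamoxifen effect differed most between days by p, Z00032887-1, had estimates of 0.139, 0.127 and -0.344 on days 1, 3 and 6 (F-test p 0.000368, adjusted p 0.997 in limma). Over the bright probes, the changes with tamoxifen alone on day 1 correlated at 0.23 with those on day 3 and at 0.38 with those on day 6, and those of days 3 and 6 at -0.00026. These are correlations across 26968 probes of arrays that share slide positions, given as a description. For tamoxifen beside doxycycline the same correlation between days 3 and 6 was 0.65.

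The probes that separate ES cells from fibroblasts gave no call with tamoxifen alone. Since 0 of all 42006 probes were called, this is not a result about these lists. Of the 1218 ES-high probes, 965 were bright on all 12 arrays and 0 were called. Their median change was -0.0041, with 570 estimates above 0 and 648 below. Over all probes the median was 0.0029, with 21918 estimates above 0 and 20088 below. The medians of the ES-high probes on days 1, 3 and 6 were -0.051, 0.0066 and 0.04. A 2-fold change was excluded for 99.9% of the 965 bright members. Estimates over the whole list ran from -0.722 to 0.222.

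Of the 2574 MEF-high probes, 2527 were bright and 0 were called. Their median change was 0.021, with 1601 estimates above 0 and 973 below, and by day it was 0.021, 0.0029 and 0.037. Over all bright probes the median was 0.0055, with 14369 estimates above 0 and 12599 below. A 2-fold change was excluded for 99.8% of the bright MEF-high probes. Beside doxycycline, tamoxifen called 545 ES-high probes higher and 16 lower, with a median of 0.13, and 135 MEF-high probes higher and 518 lower, with a median of -0.056. The background for those counts was 2974 probes called higher and 1428 lower of 42006, together 10.5%.

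Tamoxifen beside doxycycline is the comparison most like the present one, with the same clone, dose, days and number of arrays. In a fit of the 24 arrays it gave those 4402 calls, and tamoxifen alone gave 0 (0%; 4227 at an unadjusted p under 0.05). The difference between the 2 effects was tested at all 42006 probes, including those not bright without doxycycline, where background compresses the ratio. It was called at 2056 probes (4.89%), more positive beside doxycycline at 1429 and more negative at 627. The part of this compression in the count was not tested. The count was 1102 with median centring in place of loess, 1110 with the replicate number within day as a block and 1295 with the Feature Extraction log ratio. With tamoxifen alone, day 6, replicate 1 left out, it was about 5.1e+03.

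The size of the effects was then compared at the probes that changed beside doxycycline, chosen on the 12 doxycycline arrays alone with day as a block (3859 called, 9.19% of 42006). Choosing by a test raises the values beside doxycycline, so those are the upper end. Of the called probes 1902 higher ones were bright on the 12 arrays without doxycycline. Their median was 0.02 with tamoxifen alone and 0.207 beside doxycycline, and 1190 estimates without doxycycline were above 0 and 712 below. For 1603 of them (84.3%) the interval without doxycycline excluded a change as large as that measured beside it. It excluded 1/2 of that change for 939 of the 1902. The bright lower probes numbered 1282, with a median of 0.0056 alone and -0.173 beside doxycycline, and the interval excluded the change for 1104 (86.1%). It excluded 1/2 of the change for 629 of these. The test of the difference between the 2 effects called 880 of the bright higher probes and 475 of the bright lower ones. The smaller the change beside doxycycline, the less the arrays without it could say.

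Larger changes beside doxycycline could nearly all be excluded without it at bright probes. Called probes with a change of 25% or more numbered 557 higher, of which 377 were bright, and 93 lower, of which 80 were bright. At 1.5-fold or more there were 109 higher, 61 of them bright, and 5 lower, 4 of them bright. The called probes that were not bright have no limit here. At a change of 25% or more, 373 of 377 bright higher probes (98.9%) and 79 of 80 lower ones (98.8%) had intervals without doxycycline that did not reach that size. At 1.5-fold or more this held for all 61 bright higher probes, whose estimates with tamoxifen alone ran from -0.218 to 0.0998, and for the 4 bright lower ones. The 4 lower probes, Z00064530-1, Z00034359-1, Z00020928-1 and Z00022184-1, were picked out after their values were seen. They changed by -0.664, -0.631, -0.628 and -0.618 beside doxycycline, and with tamoxifen alone their estimates were 0.0563, 0.237, 0.0928 and 0.149.

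**Figure D4:**
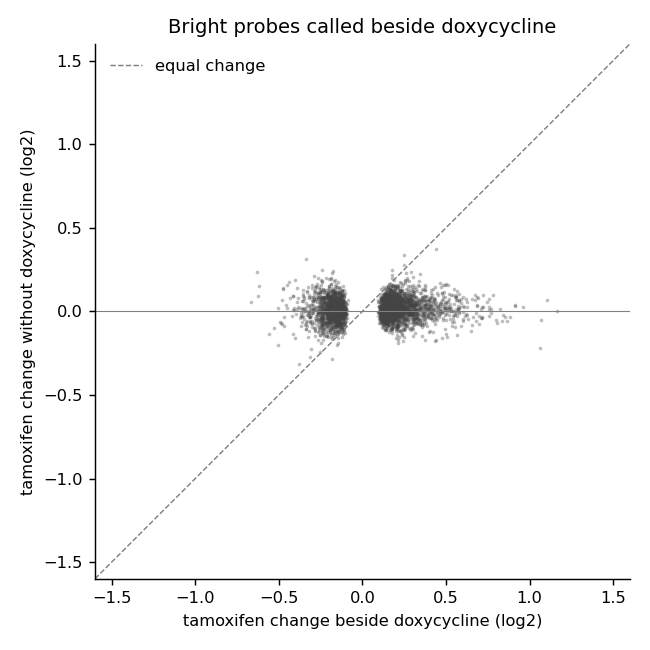
Each point is a bright probe called for tamoxifen beside doxycycline (12 arrays), with its log2 change there on the x axis and its log2 change with tamoxifen alone on the y axis. The dashed line marks equal changes. The points lie along the horizontal line at 0: the 61 called higher by at least 1.5-fold have a median of 0.697 on the x axis and 0.011 on the y axis.

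The called bright probes included 4 that were at least 2-fold higher beside doxycycline, picked after their values were seen. Z00029389-1 read -1.44 and -1.32 with tamoxifen alone on day 1, against -1.38 and -1.26 with neither drug. On day 3 the values were -1.54 and -1.53 with tamoxifen alone, against -1.53 and -1.51 with neither drug, and on day 6 they were -1.53 and -1.56 with tamoxifen alone, against -1.61 and -1.63 with neither drug. The groups overlapped on day 1, met on day 3, and lay close to each other on day 6, with the tamoxifen arrays higher. With both drugs it read 2.87 and 2.69 on day 6, against 0.951 and 0.86 with doxycycline alone. Its change with tamoxifen alone was 0.00 (SE 0.04, 95% interval 0.95-fold to 1.06-fold), against 1.16 beside doxycycline, and the difference of 1.16 (SE 0.0522) had an adjusted p of 1.85e-09 in limma. The 1.16 beside doxycycline is a mean over unlike days, 0.207, 1.41 and 1.88 on days 1, 3 and 6. With the replicate number within day as a block, the difference had an adjusted p of 0.0296 in limma.

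Z00058073-1 read -4.09 and -4.03 with tamoxifen alone on day 6, against -4.21 and -4.19 with neither drug. On day 1 the values were -3.31 and -3.29 with tamoxifen alone, against -3.31 and -3.32 with neither drug, and on day 3 they were -3.92 and -3.85 with tamoxifen alone, against -3.93 and -3.95 with neither drug. The tamoxifen arrays were slightly above their controls on days 3 and 6. Its change with tamoxifen alone was 0.0689 (95% interval 0.00348 to 0.134), against 1.1 beside doxycycline, with an adjusted p of 9.04e-10 for the difference in limma. With the replicate number within day as a block, that adjusted p was 0.000168 in limma. For Z00066926-1 the change was -0.0493 alone (95% interval -0.188 to 0.0892) and 1.07 beside doxycycline.

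Z00038074-1 had a wider interval. It read -2.42 and -2.43 with tamoxifen alone on day 6, against -1.07 and -2.55 with neither drug, and 1 array with neither drug stands off from the other values. Its change was -0.218 alone (95% interval -0.642 to 0.206) and 1.06 beside doxycycline (adjusted p of the difference 0.00176 in limma). In ES cells all 4 of these probes were higher than in untreated wild MEFs, by 2 to 4.87 on the log2 scale.

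**Figure D5:**
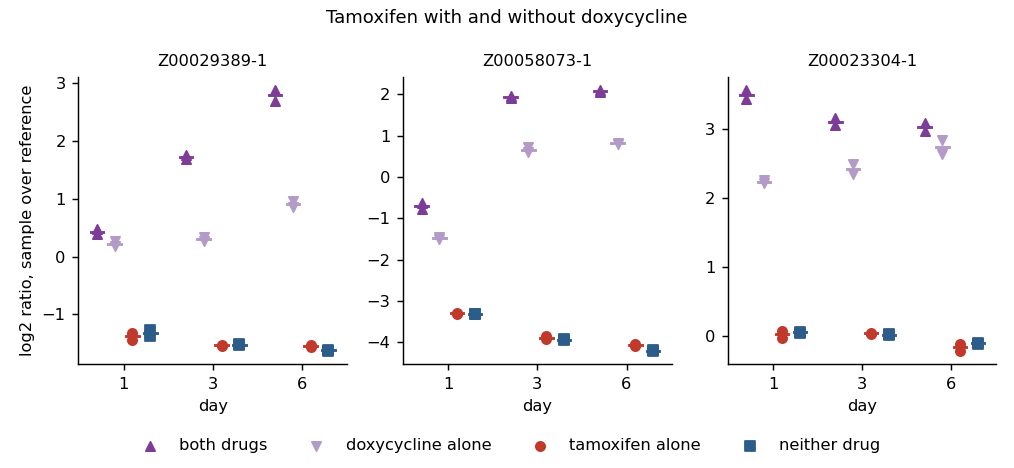
The panels plot the log2 ratio of sample over reference by day at 3 probes, for both drugs, doxycycline alone, tamoxifen alone and neither drug (each point an array, bars the mean of 2). The circles of tamoxifen alone and the squares of neither drug lie together at the bottom of each panel, while both drugs lie above doxycycline alone on each day. At Z00023304-1 the signal without doxycycline was well above background on only 2 of 12 arrays.

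Other probes had stood out in other comparisons of the series. Beside doxycycline the changes at Z00023304-1 were 1.27, 0.683 and 0.286 on days 1, 3 and 6. With tamoxifen alone it read 0.0841 and -0.0309 on day 1, against 0.0651 and 0.0483 with neither drug, and its estimate over all days was -0.0224. It was well above background on 2 of the 12 arrays, so this estimate gives no limit. Z00030893-1, which changed by -1.77 on the log2 scale with tamoxifen in primary Zscan4ERT2 MEFs (adjusted p 0.00222 in limma), had an estimate of -0.00121 with tamoxifen alone in secondary MEFs. It was well above background on 7 of 12 arrays. Z00058330-1 read 1.36 and 1.23 with tamoxifen alone on day 6, against 0.934 and 0.806 with neither drug, a change of 0.424 on that day. Its day 3 arrays read 0.437 and 0.458 with tamoxifen alone, against 0.552 and 0.512 with neither drug, which is the opposite direction. Its estimate over all days was 0.18 (95% interval 0.0258 to 0.334), and it was not called. This probe was well above background on 8 of 12 arrays, so its estimate gives no limit.

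The authors' own processed table gave the same count over all days. For the 25030 probes in the series matrix, limma called 0 (0%) with day as a block, and among 16639 bright probes a 2-fold change was excluded for 99.8%, a 1.5-fold change for 98.2% and a change of 25% for 84.4%. By day it differed: 10 probes (0.04%) were called on day 1, 11 (0.0439%) on day 3 and 287 (1.15%) on day 6. Of the 287, 167 were higher and 120 lower with tamoxifen alone, and their median absolute change was 0.349 in the matrix and 0.15 in the log ratios used above. In those log ratios 277 kept their direction, 30 had an unadjusted p under 0.05 and 0 were called. The median residual SD of the 287 in the matrix was 0.044, against 0.096 over all its probes, and 2431 of its probes had a residual SD under 0.01. How the matrix values were normalized is not stated in the sources used.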

How the data were processed

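Log2 ratios were computed from deposited scanner files of 36 two-colour Agilent arrays (18 groups of 2). Per the file headers, spots were quantified with Feature Extraction 9.5.1.1. Mean spot intensity in both channels was used as deposited, and so was, as an alternative, the software's log10 ratio (red over green, sign turned), which the authors deposited after its own background model. The series matrix holds deposited values of 25030 probes whose array medians were 2.371 to 2.455. They correlated at 0.9522 to 0.9805 with log10 sample intensity and were read as log10 sample brightness; their centring and further adjustment are unknown.

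From the 43451 spots of each array, ratios of sample (Cy3) over reference (Cy5) were taken without background subtraction and normalized by loess within the array, with control and non-uniform spots given no weight. Spots of a probe were averaged, giving 42006 probes, and no filter was applied. Limma 3.58.1 in R 4.3.3 fitted day as a block and tamoxifen (8 residual and 4.31 prior degrees of freedom). Per-day contrasts used 1 mean per group, and the difference with doxycycline used 24 arrays. P-values were two-sided, adjusted by Benjamini-Hochberg over all probes. The script was tested on simulated data.

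Named probes were the 2 rising and 2 falling with the lowest p, since none was called, the lowest p on each day and between days, the highest and lowest bright estimates, and probes named in earlier work on these data. The members, lists and rules were chosen with earlier results of these data known. Planned gene lists could not be applied, since the files give the probe identifier in place of a gene symbol. Same-numbered replicates deviated together at correlations of 0.194, -0.0354 and 0.456 on days 1, 3 and 6, so the numbers were not taken to pair samples. Leaving out whole days, or the 2 arrays that stood apart, was added after the data were seen.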

Additional observations from a re-analysis of the deposited data

Results flagged for a closer look

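The effect of tamoxifen differed with doxycycline at 2056 probes by the test of the difference itself (limma, 24 arrays), which took in probes that were not bright without doxycycline. Among them were several of the probes given above, including 4 of those named in earlier work on these data. The effect beside doxycycline minus that without it was 1.16 at Z00029389-1 (1.16 beside doxycycline, 0.00241 alone) and 1.03 at Z00058073-1 (1.1 beside, 0.0689 alone). At Z00023304-1 it was 0.768 (0.745 beside, -0.0224 alone), where the value without doxycycline is not well above background on 10 of 12 arrays. At Z00058330-1 it was -0.224 (-0.0445 beside, 0.18 alone; adjusted p 0.0303 in limma), so that the estimate was the higher one without doxycycline. Neither estimate at this last probe was called, and it was well above background on 8 of the 12 arrays without doxycycline.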

How the results depend on the processing

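With tamoxifen alone over all days, limma called 0 probes under each of 12 other settings and with each of the 12 arrays left out in turn. The percent of bright probes within 2-fold was 99.4 with the Feature Extraction log ratio, 99.9 with median centring, with all 36 arrays, with a replicate block within day, without day 6 and without the 2 arrays that stood apart, 99.6 without day 1 and 99.7 with the sample channel alone. It was 99.7 to 99.9 with 1 array left out. The median half-width was 0.112 in the matrix, 0.131 with the Feature Extraction ratio, 0.118 with median centring, 0.089 with the replicate block and 0.0887 with 36 arrays, and 0.0867 to 0.105 with 1 array left out. Median centring put the median of MEF-high probes at 0.0743. With 1 array left out it was 0.00761 to 0.0314, and that of ES-high probes -0.0112 to 0.0117, on both sides of 0.

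Calls on single days were less stable. The matrix gave 10, 11 and 287 on days 1, 3 and 6 and 48 between days, and the Feature Extraction ratio 12, 3, 3 and 12. The fit of 36 arrays called 2 on day 6, Z00023515-1 (-0.383) and Z00027757-1 (1.09), both with an adjusted p of 0.044 in limma. With 1 array left out the counts were 0 to 10 on day 1, 0 to 16 on day 3, 0 to 4750 on day 6 and 0 to 40 between days. The 4750 arose without tamoxifen alone, day 6, replicate 1, which leaves replicate 2, an array that stood apart, as the only one of its group, assumed to vary like the others. Without that replicate 2 there were 42, and without either array with neither drug 14 or 45. The difference with doxycycline was called at 1295 probes with the Feature Extraction ratio, 1102 with median centring and 1110 with the replicate block, and at 1602 to about 5.1e+03 with 1 array left out.

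The 2 rising probes with the lowest p kept their direction and were not called under 8 other settings, nor were the 2 falling ones under 7 (all but the series matrix), and the same held for the 4 with each of the 12 arrays left out. The robust spread, the days left out and the 2 arrays left out were not run for single probes. Dim probes, 15038 of 42006, have no limit here.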
